A study of Mus musculus with 12 samples.

Results

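Integrins, laminins and the focal adhesion proteins join a cell's actin cytoskeleton to the matrix around it. An integrin is a pair of an alpha and a beta chain that spans the membrane. Outside, it binds matrix proteins such as laminin and fibronectin, and inside, talin and kindlin bind its beta tail and connect it through vinculin, paxillin and the ILK complex to actin. In skeletal muscle the alpha 7 beta 1 integrin binds laminin in the basement membrane of the fibre, and alpha 5 beta 1 is the classical fibronectin receptor of the myoblast.

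The genes were chosen by name: protein-coding genes in the 3 deposited tables whose symbols begin with Itga or Itgb, or are those of laminin chains, parvins or kindlins (Fermt), together with 16 named matrix and adhesion genes (Fn1, Vcl, Tln1, Tln2, Pxn, Ptk2, Ilk, Zyx, Tns1, Tns2, Tns3, Nid1, Nid2, Tnc, Vtn and Bcar1). In GENCODE M21, an annotation of the mouse genome build GRCm38, 64 protein-coding genes have such a name. The tables listed 45 of them (70.3%), against 42.2% of all annotated protein-coding genes, and these were among 9266 protein-coding genes and 10289 genes of any kind listed in at least 1 table. The name rule used no measured value, but a gene has a value here only if the authors' FDR limit kept it in a table.

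RNA was sequenced from C2C12, an established mouse myoblast line, infected with lentivirus and selected with puromycin as stable lines. The groups used here were GFP-overexpressing C2C12 (the negative control) on D0 in growth medium (GM), the same GFP line on D4 in differentiation medium, and Mettl3-overexpressing and Mettl14-overexpressing C2C12, both placed on D0 by their titles, with 2 libraries in each of the 4 groups. The time point label of the Mettl14 libraries says D4, against their titles and the study's text, and the titles were followed. METTL3 and METTL14 form the enzyme complex that writes N6-methyladenosine (m6A) into RNA. Every group, the control included, carried a transgene vector with the CMV promoter, and the sources used here do not say whether a line was 1 clone or a pool.

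The tables compared D4 with GM in GFP cells (9823 genes), METTL3 with GFP in GM (1754 genes) and METTL14 with GFP in GM (1102 genes), and each held the genes that the authors kept at an FDR of at most 0.05. All 3 comparisons used the GFP libraries in GM, so a gene that was unusual in those libraries could enter several tables. The values analysed were which tables list a gene, and the authors' mean normalized count of the gene, a read count corrected for library size and averaged by the authors over the libraries of their fit. Between tables the mean of a shared gene differed by a relative 4.77e-10 at most, so it is a single value per gene. It gives the abundance of a transcript across the study and not its level on D0 or D4. By title, most of the RNA-seq libraries were on D0, since only the GFP line was also sequenced on D4. A mean over all of them weights cells in GM more than differentiated cells. The tables give no count per library, so the depth of a library was unknown, no spread over replicates could be computed, and the differences in level described below have no test. The authors' fold changes and p-values were not used, so no direction of change is given for any gene. A gene that was not listed has no value here, which does not show that it was silent or unchanged.

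The muscle identity of the cells was visible in the same tables. All 7 muscle markers were listed, with an authors' mean normalized count of 1845 for Myod1, 2124 for Myog, 24157 for Des, 40372 for Myh3 and 53546 for Acta1. None of the 3 leukocyte markers, the 3 endothelial markers or the 3 Schwann and neural markers was listed. Of the 3 epithelial markers, Cdh1 was listed with a mean of only 13.8, and Epcam and Krt8 were not listed. A marker at a steady level in all groups would also be unlisted. The unlisted markers therefore do not show that cells of other types were absent.

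The adhesion genes as a whole had a higher median level than other listed genes, but the integrin and laminin chains did not. The median authors' mean normalized count of the members was 1217, against 545 over all listed protein-coding genes, and 36 of the 45 had a mean of at least 100. Per kb of exon the median was 155, against 115 over all listed protein-coding genes. The integrin chains had a median mean of 395 (76.9 per kb) and the laminin chains one of 418 (49.6 per kb), both below those of all listed protein-coding genes. The matrix glycoproteins were higher, with a median of 1137 per kb. The range was wide, from 0.670 per kb for Itga2 to 19408 per kb for Fn1. Levels of single genes are compared per kb of exon, where the length is the union of all annotated exons of the gene unless another length is named.

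**Figure D1:**
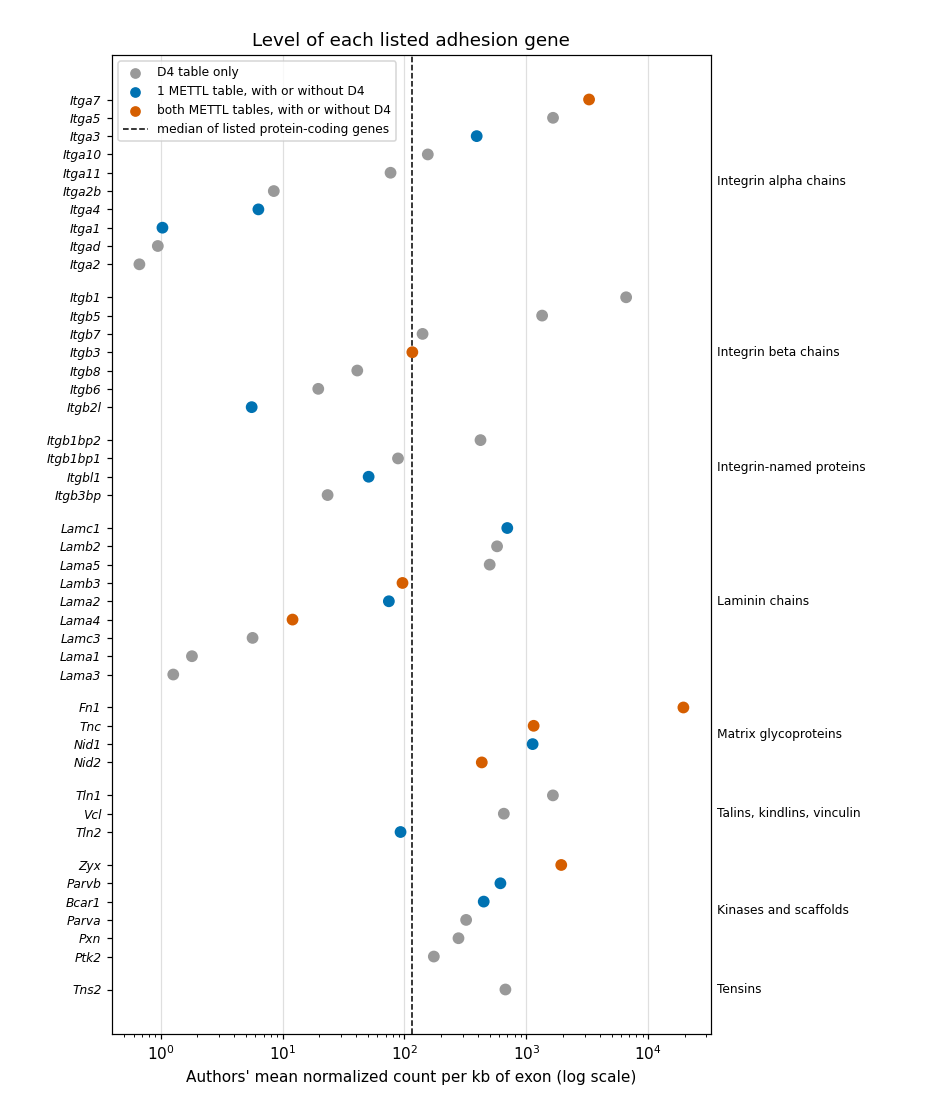
Authors' mean normalized count per kb of exon (log scale) for the listed members named in the text, grouped by role and ordered by level, with colour giving the tables that list the gene and the dashed line at 115, the median of listed protein-coding genes. Fn1 at 19408 and Itgb1 at 6581 lie farthest to the right of the members, and several alpha and laminin chains lie near 1.

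Of the integrin alpha chains, which set much of the ligand preference of the receptor, 10 of 18 annotated genes were listed. The muscle laminin receptor chain Itga7 (ENSMUSG00000025348, chromosome 10, 128933818 to 128958282) had an authors' mean normalized count of 26440, or 3267 per kb. Itga7 made up 58.7% of the summed level per kb of the listed alpha chains and was above 98.9% of the listed protein-coding genes. The fibronectin receptor chain Itga5 (ENSMUSG00000000555, chromosome 15, 103344286 to 103366763) followed with a mean of 8160 and 1654 per kb. The Itga7 level per kb was 1.98 times that of Itga5 with the union of exons as the length, and 3.56 times with the longest transcript, so the order held while its size depended on the length used.

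The next alpha chain was Itga3, a laminin receptor chain of many epithelia, with a mean of 2235 and 391 per kb. The collagen receptor chains Itga10 (mean 806) and Itga11 (mean 395) were at 155 and 76.9 per kb. The remaining listed chains were scarce. Itga2b, the platelet alpha chain, was at 8.48 per kb (mean 46.3) and Itga4, a receptor chain for VCAM1 and fibronectin, at 6.34 per kb (mean 88.6). Per kb of coding sequence Itga4 was the higher, at 28.6 against 14.9. Itga1 (mean 19.3), Itgad (mean 4.28) and Itga2 (mean 4.78) were near 1 per kb or below, so that these means rest on few reads. Itga6, Itga8, Itga9, Itgav, Itgae, Itgal, Itgam and Itgax were listed in no table. Of these, Itgal, Itgam, Itgax and Itgae are known from leukocytes, whereas Itgav and Itga6 pair with several beta chains in many tissues.

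In the beta chains the highest chain took a larger share. Of 9 annotated genes 7 were listed, and Itgb1 (ENSMUSG00000025809, chromosome 8, 128685654 to 128733200), the partner of most alpha chains, had an authors' mean normalized count of 26858, or 6581 per kb. It accounted for 79.8% of the summed level per kb of the listed beta chains. Itgb5, a partner of the alpha v chain in vitronectin receptors, was at 1346 per kb (mean 4784), which put Itgb1 4.89 times higher. Itgb1 was 2.01 times Itga7 per kb of all exons but 1.07 times with the longest transcript as the length. The excess of beta 1 over alpha 7 transcripts thus depended on the length.

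Itgb7, best known from lymphocytes, was at 141 per kb (mean 390). Itgb3, the other well-known partner of alpha v, was at 116 per kb (mean 685). Their order depended on length, since per kb of coding sequence Itgb3 was at 290 and Itgb7 at 161. Itgb8 (mean 454) was at 41.0, Itgb6 (mean 140) at 19.6 and Itgb2l, a gene related to Itgb2, at 5.58 per kb (mean 24.1). Itgb2, the leukocyte beta chain, and Itgb4, the hemidesmosome chain, were not listed.

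The name rule also took in 4 genes that encode no integrin chain, and all of them were listed. Itgb1bp2 encodes melusin, a muscle protein that binds the beta 1 tail, and was at 421 per kb (mean 756). Itgb1bp1, which encodes ICAP-1, another binder of the beta 1 tail, was at 88.5 per kb (mean 313). Itgbl1, a secreted protein with integrin-like repeats, was at 50.8 per kb (mean 215). Itgb3bp encodes a centromere protein despite its name and was at 23.4 per kb (mean 109).

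Laminins, heterotrimers of an alpha, a beta and a gamma chain, are the main adhesive proteins of the basement membrane. Of 11 annotated chains 10 were listed, and Lamb1 was the exception. Lamc1, the gamma chain of most laminins, was highest at 697 per kb (mean 5768), followed by Lamb2 at 575 (mean 3497) and Lama5 at 500 (mean 5697). Lamc1 was 1.21 times Lamb2 and 1.39 times Lama5 per kb, and 1.85 and 2.34 times per kb of coding sequence, differences that cannot be judged without replicate values. Lama2, the alpha chain of muscle laminin, was at 74.5 per kb (mean 1217), and Lama5 was 6.71 times higher. With the longest transcript as the length this ratio was 3.95.

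Lamb3 and Lama3, chains of an epithelial laminin, were not matched in level. Lamb3 was at 96.4 per kb (mean 637), whereas Lama3 was at 1.27 (mean 13.6). Lama4, known from vessels, was at 12.1 per kb (mean 146). Lamc3 (mean 34.6) and Lama1 (mean 17.5), the alpha chain of the early embryonic laminin, were at 5.68 and 1.81 per kb.

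Among the other matrix glycoproteins, fibronectin stood far above the rest. Fn1 (ENSMUSG00000026193, chromosome 1, 71585520 to 71653200) had an authors' mean normalized count of 226778, or 19408 per kb, higher per kb than 99.9% of the listed protein-coding genes. This was 16.9 times the level per kb of Tnc, which encodes the de-adhesive protein tenascin C (mean 8918, 1147 per kb). Fn1 was 2.95 times Itgb1 per kb. The nidogens, which bridge laminin and collagen IV networks, were at 1126 per kb for Nid1 (mean 7815) and 431 for Nid2 (mean 2229). Vtn, the vitronectin gene, was not listed.

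On the cytoplasmic side, Tln1, the talin that links beta tails to actin, was at 1651 per kb (mean 16180). Its relative Tln2, the isoform of striated muscle, was at 92.9 per kb (mean 1705), so Tln1 was 17.8 times higher with all exons as the length and 9.50 times with the coding sequence. Vcl, the vinculin gene, was at 653 per kb (mean 5352). None of the 3 kindlin genes Fermt1, Fermt2 and Fermt3 was listed, so no level can be given for the partner of talin.

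Of the kinases and scaffolds, Zyx, which encodes the tension-sensing LIM protein zyxin, was highest at 1932 per kb (mean 10414). Parvb (612 per kb, mean 2705) and Parva (321 per kb, mean 3256) encode parvins, which attach the ILK complex to actin. Their order depended on length, since Parva had 0.523 times the level of Parvb per kb of all exons and 1.18 times per kb of coding sequence. The docking protein gene Bcar1 was at 447 per kb (mean 2032), the paxillin gene Pxn at 277 (mean 2274) and Ptk2, the gene of focal adhesion kinase, at 174 (mean 2056). Ilk and Parvg, the parvin of blood cells, were not listed. Of the tensins, which bind beta tails in matrix adhesions, only Tns2 was listed in these tables, at 673 per kb (mean 3670), and Tns1 and Tns3 were not.

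The first comparison asked which genes differ between myoblasts in GM and cells after 4 days of differentiation. The D4 table listed 41 of the 64 annotated adhesion genes (64.1%), against 40.1% of all 21951 annotated protein-coding genes. By role it listed 9 of 18 alpha chains, 6 of 9 beta chains, 9 of 11 laminin chains, 4 of 5 matrix glycoproteins and 6 of 8 kinases and scaffolds. It listed 2 of the 6 talin, kindlin and vinculin genes and 1 of the 3 tensins. Most members with any value were therefore in this table, including Itgb1, Itga5, Itga7, Fn1, Tln1 and Vcl. The exceptions included Itga3, Itgb3 and Tln2, which were in a METTL table and not in that of D4.

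The share of genes in a list depends on the genes counted. Of the 45 members in any table, 91.1% were in the D4 table, against 95.2% of the listed protein-coding genes. By this count the share of the adhesion genes was slightly below that of other listed genes, and the difference was not tested. With a mean of at least 100 the shares were 32 of 36 (88.9%) and 95.8%. All members that the limit removed were in the D4 table, so the members outside it were the same in both counts.

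The second comparison asked which genes differ when METTL3 is overexpressed in proliferating cells. The METTL3 table listed 16 adhesion genes, 25% of those annotated, against 7.80% of all annotated protein-coding genes. Among members in any table the share was 35.6%, against 18.5% of listed protein-coding genes. When members and other genes were limited to a mean of at least 100, it was 14 of 36 (38.9%) against 19.5%. The laminins gave the largest number, with 5 of 11 chains, Lama2, Lama4, Lamb3 and Lamc1 among them. The alpha chains listed were Itga1, Itga3 and Itga7, and the beta chains Itgb2l and Itgb3. Fn1, Nid2, Tnc, Bcar1, Parvb and Zyx were also listed. No talin, kindlin, vinculin or tensin gene was in this table, and none of the integrin-named genes that encode no chain was.

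The third comparison asked the same of METTL14. Its table listed 13 adhesion genes, 20.3% of those annotated, against 4.91% of all annotated protein-coding genes. Among members in any table the share was 28.9%, against 11.6% of listed protein-coding genes, and with a mean of at least 100 it was 12 of 36 (33.3%) against 12.1%. Of the matrix glycoproteins 4 of 5 were listed, namely Fn1, Tnc, Nid1 and Nid2. The others included the chains Itga4, Itga7 and Itgb3, the laminins Lama4 and Lamb3, and Itgbl1, Tln2 and Zyx. Tln2 was in the METTL14 table alone and Itga3 in the METTL3 table alone. Whether the effects of METTL3 and METTL14 on these genes differ was not tested.

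**Figure D2:**
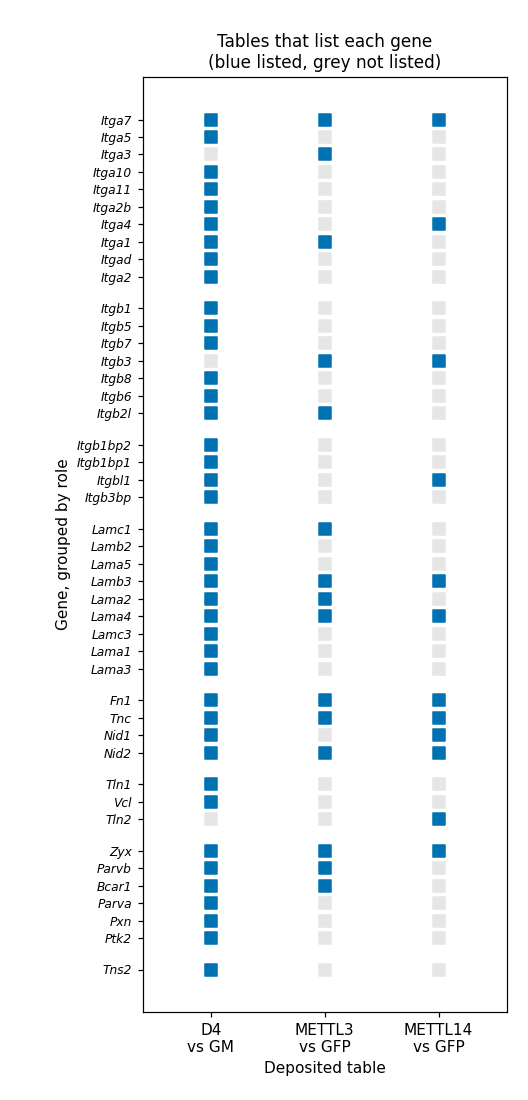
The deposited tables (columns) that list each member named in the text (rows, grouped by role), with blue for listed and grey for not listed. The D4 column is blue in 41 rows, and 7 members are blue in all columns.

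Fn1, Itga7, Lama4, Lamb3, Nid2, Tnc and Zyx were in all 3 tables, which share the GFP libraries in GM. These 7 genes were 15.6% of the members, against 6.84% of the listed protein-coding genes (634 genes). The 25 genes in the D4 table alone were 55.6% of the members, against 78.4% of the listed protein-coding genes (7267 genes). These shares are descriptions, with no test. The levels of the 7 genes ran from 12.1 per kb for Lama4 to 19408 for Fn1. The median level was 155 per kb for the members in the D4 table alone, 411 for those in the METTL3 table and 116 for those in the METTL14 table. All protein-coding genes of the METTL3 and METTL14 tables had medians of 127 and 113 per kb. Without a length, the members' median means were 756, 2130 and 1705 in the same order. The place of the METTL14 set thus depended on length, and the 2 METTL sets share genes. Itgb1 and Tln1, which carry the highest levels of the beta chains and of the talins, were in neither METTL table.

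**Figure D3:**
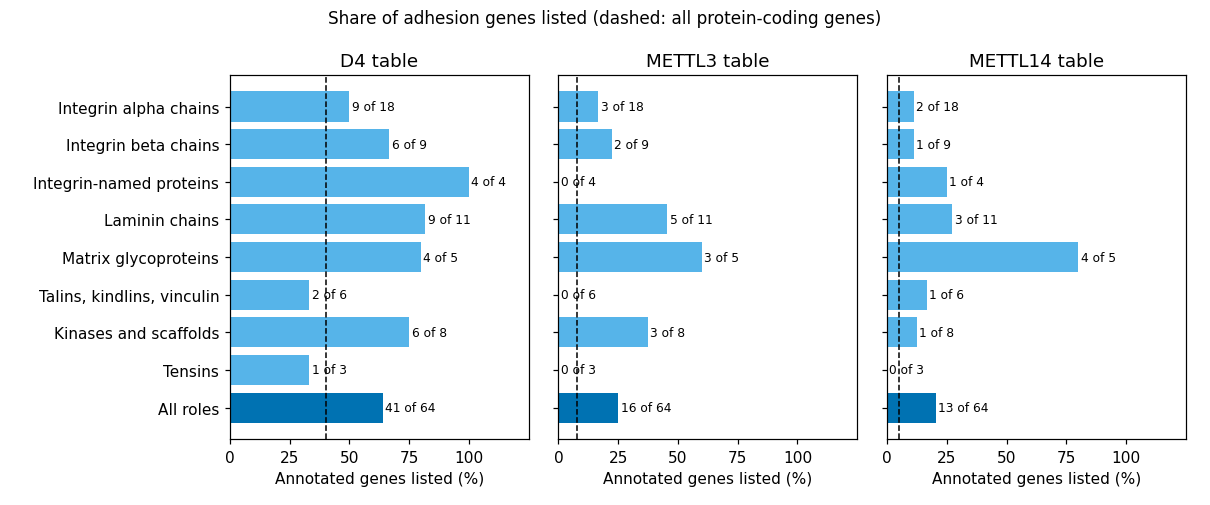
Share of annotated genes that each table lists (percent, bars), by role and for all roles, with the number listed beside each bar and a dashed line at the share over all protein-coding genes (40.1% for D4, 7.80% for METTL3 and 4.91% for METTL14). The bar for all roles lies above the dashed line in each panel, at 64.1%, 25% and 20.3%.

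Other genes of the focal adhesion and its matrix were examined as a list of 40, chosen by function but with earlier results of these data known. The D4 table listed 30 of them (75%), the METTL3 comparison 12 (30%) and the METTL14 comparison 10 (25%). Over all annotated protein-coding genes the shares were 40.1%, 7.80% and 4.91%, and the differences were not tested. Here too the share depends on the genes counted. Of the list, 31 genes were in any table, and 30, 12 and 10 of these were in the D4, METTL3 and METTL14 tables. Of the listed protein-coding genes, 95.2%, 18.5% and 11.6% were in the same tables. The Src family kinase genes Src (273 per kb) and Fyn (440 per kb), the actin regulators Vasp (604 per kb) and Enah (84.3 per kb), and Tes and Postn were in all 3 tables. The filamin gene Flna, an actin crosslinker that binds beta tails, was in the D4 table alone at 4586 per kb. Thbs1, which encodes the matrix protein thrombospondin 1, was at 8871 per kb in the D4 and METTL3 tables. Cav1, the gene of caveolin 1, was in the METTL3 table alone at 1150 per kb. Of the ILK partners, Lims1 (677 per kb), Lims2 (42.0 per kb) and Rsu1 (227 per kb) were in the D4 table alone. Yes1, Actn1, Git2, Arhgef7, Crkl, Dock1, Lpxn, Rock1 and Rock2 were not listed.

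Since the lines overexpressed m6A writers, the transcripts were searched for GGACT, a frequent form of the sequence in which m6A is placed. The sense strand of the transcript with the longest coding sequence was searched for each gene in GENCODE M21. The 45 adhesion genes had a median of 1.23 matches per kb (range 0.449 to 2.39), against 1.05 over the listed protein-coding genes. A match within 200 bases of the end of the coding sequence, the region where m6A is known to be frequent, was present in 14 of the 45 genes (31.1%), against 39.8% of listed protein-coding genes. For the 20 members in a METTL table the median was 1.17 per kb, and for the 25 in the D4 table alone 1.23. These medians lay close together. The following are the sequences of the 6 members in a METTL table with a match in that window, shown to locate the candidate adenosines, with the match nearest to that end in capitals and 10 transcript bases on either side. A match is not a measured m6A site.
Itga1: cgcctttgcgGGACTcctgctgtta
Itga4: cttgctacttGGACTtattgtactt
Itgb3: acctaccgggGGACTtaatgagacc
Lamc1: cagccatcatGGACTataaccggga
Nid2: tctaccacacGGACTggcggaggga
Zyx: acaagtgtgaGGACTgtgggaaacc

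Itgb3 had 2 matches in the window, and only the nearer is shown. All 6 matches shown began in coding exons of GRCm38. The nearer match of Itgb3 lay on the forward strand at chr11:104667138-104667142, with its A 2 bases before the last coding base, so it runs up to the stop codon. Those of Itga1 (chr13:114965635-114965639, reverse strand) and Itga4 (chr2:79325653-79325657, forward strand) had the A 81 and 132 bases before that base. Those of Lamc1 (chr1:153221580-153221584, reverse strand) and Nid2 (chr14:19810092-19810096, forward strand) had it 106 and 130 bases before. The Nid2 window crosses a splice junction. In Zyx (forward strand, chromosome 6) the match itself is formed across a splice junction, with its first base at 42357433 and its last at 42357855. In Fn1, the most abundant member, the nearest of 8 matches lay 460 bases past the coding sequence, and in Itga7 the nearest of 5 lay 565 bases before its end.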

How the data were processed

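Per the study's methods, hisat2 was used by the authors for alignment to GRCm38, featureCounts with an Ensembl annotation for gene counts, and DESeq2 for the comparisons, and genes with FDR ≤ 0.05 were deposited. Program versions are not given in the sources used here. The deposited mean normalized count is a signal, the average that the authors' fit gave across its libraries. The tables also hold the authors' log2 fold changes with standard errors, Wald statistics, p-values and adjusted p-values, which were not used. The 4 MeRIP-seq libraries were not analysed here.

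From the tables, genes were selected by symbol and gene type and counted per table. Of 10289 listed identifiers 10282 were found in GENCODE M21 (GRCm38), which gave positions and lengths. The selection was tested on made-up tables. Members, lists and alternatives were chosen with earlier results of these data known, and the GGACT search after the tables were seen. By rule every member could be named, but 2 genes of the lists appear only in counts. Proteins were not analysed here. Genes in several tables are given as a description, since the comparisons share controls. Alternatives were a mean of at least 100, any gene type, matching by identifier, other denominators and other lengths. Calculations used Python 3.11.15, pandas 2.3.3, NumPy 2.4.6 and matplotlib 3.10.9.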

Additional observations from a re-analysis of the deposited data

How the results depend on the processing

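The counts of 41, 16 and 13 genes were equal with any gene type and with matching by identifier, and were 32, 14 and 12 with a mean of at least 100. The median level of the members was 155 per kb of all exons, 163 per kb of the longest transcript and 511 per kb of the longest coding sequence. Without a length, 10 of the 17 listed integrin chains kept their place in the order. The median mean normalized count was 395 for the integrin chains alone, against 1217 for all members. No paired analysis was possible because the tables hold no value per library, and for the same reason no replicate could be left out. The means pool D0 and D4 and carry no spread, and genes that were not listed have no value, so shares within a family cover listed chains only.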
